A study of Arabidopsis thaliana with 6 samples.

Results

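Late embryogenesis abundant (LEA) proteins are small, mostly hydrophilic proteins that fill plant embryos late in seed development, when the seed dries. They are thought to protect membranes and other proteins during drying. Several subgroups, the dehydrins above all, are also made in leaves and roots under cold, drought or the hormone abscisic acid (ABA). ABA and the seed maturation regulators switch many LEA genes on in the embryo, and their mRNAs usually decline as a seed germinates. The 51 LEA genes of Arabidopsis thaliana described here were taken by their locus identifiers from a table of read counts for 33602 genes, and every one had a row in it. They belong to 9 subgroups: 17 LEA_4 genes, 10 dehydrins, 6 seed maturation protein (SMP) genes, 4 LEA_3 genes, 3 each of LEA_1, LEA_2 and PvLEA18, and 2 each of LEA_5 (the Em genes) and AtM. UNE15 was put in no subgroup, since neither the gene list nor the annotation gives one.

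RNA was sequenced from whole, imbibed seeds of wild type Col-0, in 3 libraries collected 12 h after a red pulse (Rp) and 3 collected 12 h after a far-red pulse (FRp). All seeds, those of the FRp group too, had first taken up water for 2 h in the dark, received a saturating FRp of 20 min and then been chilled at 5 °C for 3 dark days. The later Rp of 20 min had a calculated Pfr/P of 0.87, the share of phytochrome in its active form, and the later FRp one of 0.03. The Rp was given at 0.05 µmol per square metre per second and the FRp at 42. Colour and strength of the pulses can therefore not be told apart. After the later pulse, the study's germination protocol moved the seeds from the cold to a warmer incubation in the dark. The study's methods call the 3 libraries of each group biological replicates. They also describe seeds of a genotype as harvested in a single bulk, so the spread between libraries holds no variation between seed harvests. Since whole seeds were pooled, fewer cells of a type and less RNA per cell cannot be told apart. The libraries held 26057621 to 31286686 gene reads after the Rp and 24234421 to 32387080 after the FRp. The stored reserve genes that mark the embryo (CRA1, CRC, SESA1 and OLEO1) were all present, as were EPR1 and MAN7, a pair of genes of the endosperm of imbibed seeds.

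LEA genes took a smaller part of the seed mRNA after the Rp. Of all gene reads, 1.27%, 1.14% and 0.968% fell on the 51 genes in the Rp libraries, against 4.77%, 4.46% and 4.36% in the FRp libraries. The groups did not overlap, and the means were 1.13% ± 0.152 for Rp and 4.53% ± 0.212 for FRp libraries (SD, n = 3 each). The AtM genes, of which there are only 2, carried 0.118% ± 0.0121 of all reads in Rp libraries and 1.42% ± 0.118 in FRp libraries. As a part of the LEA reads alone, the AtM genes made up 10.6% ± 1.14 after the Rp and 31.3% ± 1.18 after the FRp, while LEA_4 made up 38.4% ± 2.73 after the Rp and 22.9% ± 0.956 after the FRp. The dehydrins made up 18.6% ± 2.37 of the LEA reads in Rp libraries and 18.4% ± 0.315 in FRp libraries. Among the 100 genes with the highest level per length (TPM, read counts per base scaled to 1000000 in each library), 2 were LEA genes after the Rp and 15 were after the FRp. In the same libraries the 15 genes of seed storage and oil body proteins held 1.83% ± 0.413 of the reads in the Rp group and 14.4% ± 0.958 in the FRp group, and 14 of the 15 were called lower, against 26.8% of all genes tested. EPR1 fell and MAN7 rose after the Rp, by log2 fold changes of -2.08 ± 0.22 (SE, edgeR adjusted p = 3.2e-06) and 1.45 ± 0.11 (edgeR adjusted p = 1.4e-07). The part that the makeup of the tissue had in the LEA values was not tested.

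**Figure D1:**
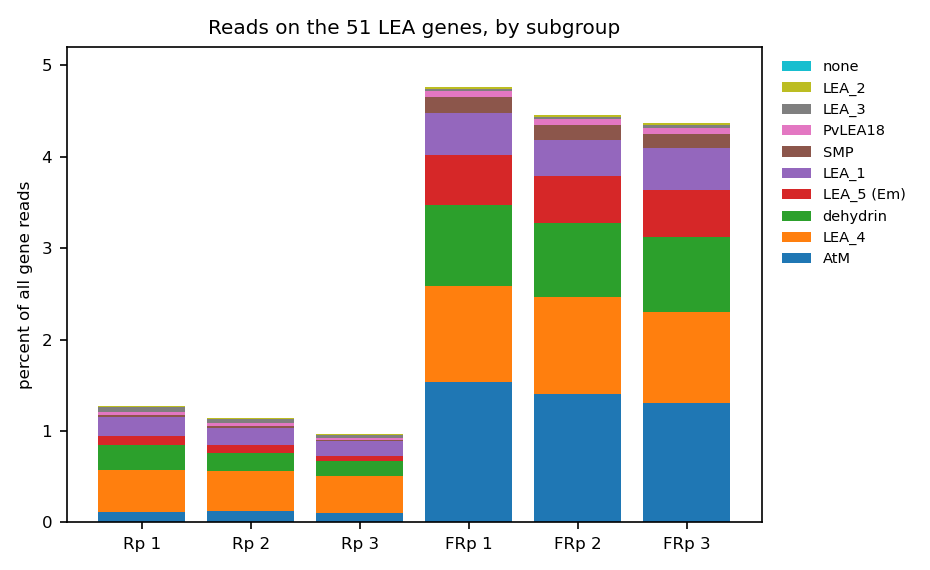
Percent of all gene reads that fell on the 51 LEA genes, for each Rp and FRp library, with each subgroup as a coloured segment of the bar. The bars reach 0.968% to 1.27% in the Rp libraries and 4.36% to 4.77% in the FRp libraries, and the AtM segment differs most.

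mRNA levels were tested gene by gene with edgeR's quasi-likelihood test and Benjamini-Hochberg adjustment over 16924 genes, and calls needed a fold above 1.5 beside an adjusted p below 0.05. Of the 51 LEA genes, 44 passed the filter on low counts. After the Rp, 33 of the 44 were called lower, against 26.8% of all genes tested, and 8 were called higher, against 28.8%. The remaining 3, AT1G02820, AT3G02480 and ERD14, were not called. The median log2 fold change, Rp over FRp, was -1.68 over the LEA genes tested and 0.02 over all genes tested. All Rp libraries lay below all FRp libraries for 33 LEA genes, against 38.5% of all genes, and above them for 8, against 39.9%. The 7 genes left out for low counts were AT3G53770, AT2G03740, AT2G33690, COR15B, COR15A, AT4G13230 and AT5G27980, of which AT3G53770 and AT4G13230 had 0 reads in every library. Close to the fold limit, DI21 was called lower with a log2 fold change of -0.59 and ERD14 was not called with 0.57.

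**Figure D2:**
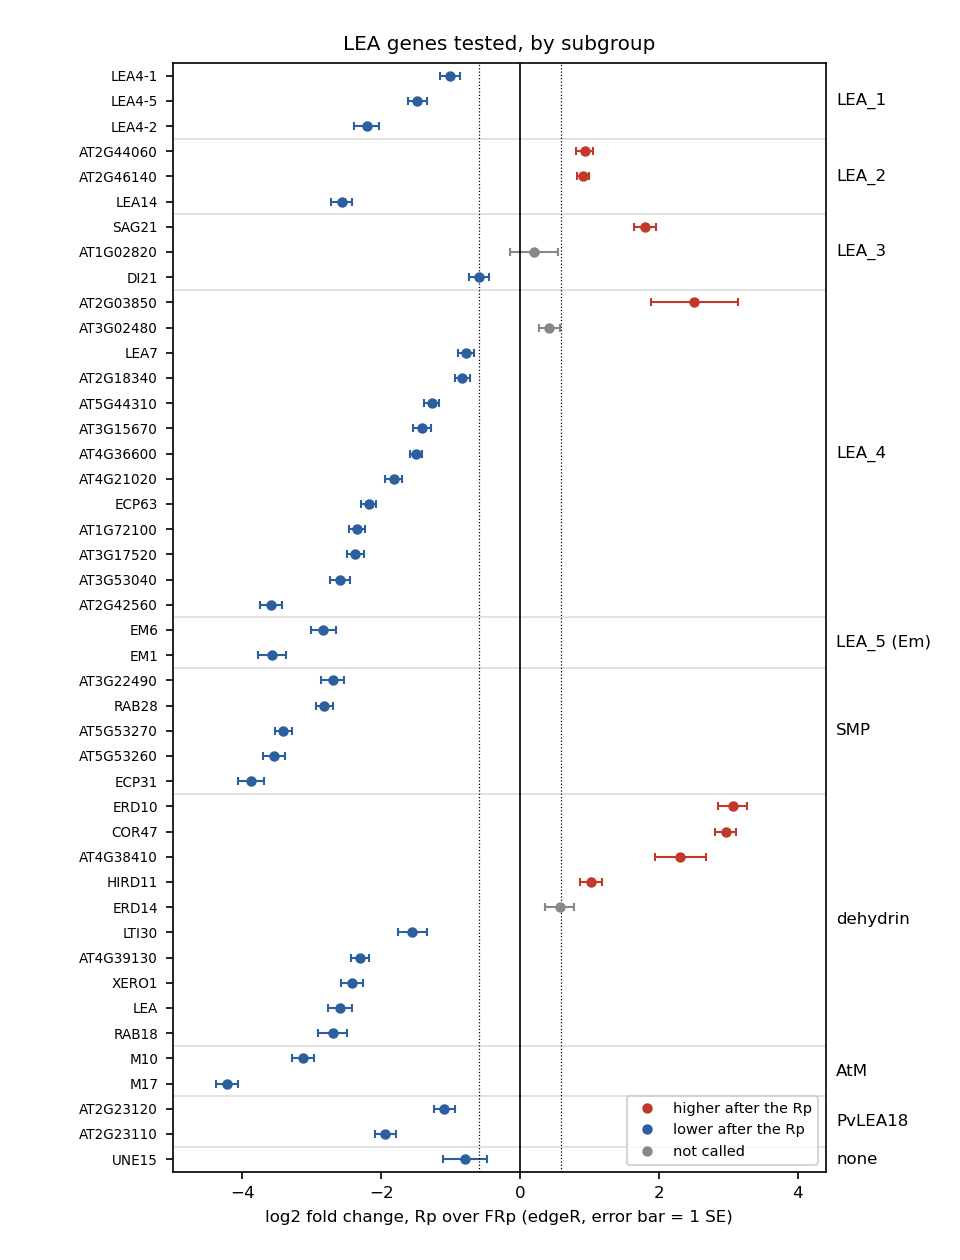
Log2 fold change of each of the 44 LEA genes tested, Rp over FRp, with 1 standard error, sorted within subgroups. Dotted lines mark a fold of 1.5, and the values run between -4.22 for M17 and 3.06 for ERD10, with genes on both sides of 0 in LEA_2, LEA_3, LEA_4 and the dehydrins.

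The AtM genes, M17 and M10, code for seed proteins with no firmly established role, and M17 is rich in cysteine, with 24 in its predicted protein. M17 lies on chromosome 2 at 17206510 to 17207698 (TAIR10) and M10 1998 bases downstream of it on the same strand. M17 had 746, 869 and 694 CPM (read counts per 1000000 gene reads, scaled by TMM, edgeR's correction for library makeup) in the Rp libraries, against 16226, 13406 and 13380 CPM in the FRp libraries. Every FRp library was far above every Rp library, and the log2 fold change of -4.22 ± 0.16 was the lowest of the family (edgeR adjusted p = 9.6e-10). M10 had 281, 269 and 205 CPM in the Rp libraries, against 2400, 2205 and 2001 CPM in the FRp libraries. The groups were again apart, with a log2 fold change of -3.13 ± 0.16 (edgeR adjusted p = 4.8e-09). By level per length, M17 ranked 7th of the LEA genes after the Rp, at a mean of 1015 TPM, and first after the FRp, at 13736 TPM.

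EM6 and EM1 form LEA_5, the group related to the wheat Em protein, and are well known targets of the ABA response factor ABI5. EM6 had 553, 476 and 339 CPM in the Rp libraries, against 3587, 3079 and 3040 CPM in the FRp libraries. EM1 had 322, 225 and 188 CPM in the Rp libraries, against 3108, 2608 and 3003 CPM in the FRp libraries. For both genes the groups were well apart, and the third Rp library was the lowest of all. The log2 fold change was -2.83 ± 0.18 for EM6 (edgeR adjusted p = 3.2e-08) and -3.57 ± 0.20 for EM1 (edgeR adjusted p = 1e-08).

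All 5 SMP genes tested fell after the Rp, against 26.8% of all genes tested, with log2 fold changes between -3.87 and -2.70. ECP31, named after a protein of carrot embryogenic cells, had 138, 106 and 83.5 CPM in the Rp libraries, against 1769, 1523 and 1504 CPM in the FRp libraries. The groups were apart and the log2 fold change was -3.87 ± 0.19 (edgeR adjusted p = 4.1e-09). AT3G22490, which lies 781 bases from ECP31 on chromosome 3, had 39.7, 33.9 and 24.5 CPM in the Rp libraries, against 234, 198 and 205 CPM in the FRp libraries. It fell by 2.70 ± 0.16 on the log2 scale (edgeR adjusted p = 1.6e-08), and since it is 83.6% identical to ECP31 over 779 coding bases, a few reads of one may have been counted for the other. RAB28, an ABA-responsive gene first described in maize, fell by 2.82 ± 0.12. The neighbours AT5G53260 and AT5G53270 are 90.8% identical over 437 aligned coding bases, so how reads were split between them is uncertain. AT5G53260 had 1.41, 1.91 and 1.49 CPM in the Rp libraries, against 18.6, 17.8 and 19.3 CPM in the FRp libraries. AT5G53270 had 3.40, 3.12 and 3.12 CPM in the Rp libraries, against 36.4, 34.4 and 31.9 CPM in the FRp libraries. Both pairs of groups were apart, with log2 fold changes of -3.54 ± 0.16 and -3.41 ± 0.12. AT5G27980 had 0 to 7 reads per library and was not tested.

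Dehydrins carry the lysine-rich K segment that folds on membranes, and members were called in both directions. Of 10 tested, 4 rose (COR47, ERD10, HIRD11 and AT4G38410), 5 fell (RAB18, LEA, XERO1, AT4G39130 and LTI30) and ERD14 was not called, against 28.8% of all genes tested called higher and 26.8% lower, so the number that rose is near the share over all genes. COR47 and ERD10 are acidic dehydrins known from cold-treated and dried leaves, and lie 2230 bases apart on chromosome 1. COR47 had 101, 82.6 and 96.7 CPM in the Rp libraries, against 10.9, 9.79 and 15.2 CPM in the FRp libraries. ERD10 had 9.02, 7.61 and 8.19 CPM in the Rp libraries, against 1.2, 0.962 and 0.830 CPM in the FRp libraries. Every Rp library was above every FRp library for both, and the log2 fold change was 2.96 ± 0.15 for COR47 (edgeR adjusted p = 6.4e-09) and 3.06 ± 0.21 for ERD10 (edgeR adjusted p = 6.6e-08). HIRD11, a small histidine-rich dehydrin that binds metals, had 206, 156 and 130 CPM in the Rp libraries, against 76.3, 71.6 and 94.3 CPM in the FRp libraries. It rose by 1.02 ± 0.16 on the log2 scale (edgeR adjusted p = 7.8e-05). AT4G38410 rested on few reads, 108, 89 and 61 in the Rp libraries against 8, 15 and 16 in the FRp libraries, with a log2 fold change of 2.31 ± 0.37 (edgeR adjusted p = 0.0001). ERD14, an acidic dehydrin closely related to ERD10, had 11.1, 8.78 and 11.2 CPM in the Rp libraries, against 6.48, 9.41 and 4.94 CPM in the FRp libraries. The groups overlapped through the second library of each, and the log2 fold change of 0.57 ± 0.21 was under the fold limit (edgeR adjusted p = 0.024). It was called higher without TMM, with the replicate block and without library 2 of either group.

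RAB18, the glycine-rich dehydrin long used as a marker of the ABA response, was the most abundant dehydrin after either pulse. It had 1377, 929 and 715 CPM in the Rp libraries, against 7149, 6056 and 6447 CPM in the FRp libraries. The groups were apart, the first Rp library stood highest within a mean of 1007 ± 338 CPM, and RAB18 fell by 2.70 ± 0.21 on the log2 scale (edgeR adjusted p = 1.9e-07). LTI30, a basic dehydrin that binds membranes, and XERO1 lie 370 bases apart on chromosome 3. LTI30 had 46.4, 40.1 and 23.9 CPM in the Rp libraries, against 120, 119 and 83.1 CPM in the FRp libraries. XERO1 had 217, 202 and 142 CPM in the Rp libraries, against 1112, 941 and 935 CPM in the FRp libraries. Neither gene's groups overlapped, and the log2 fold change was -1.55 ± 0.21 for LTI30 (edgeR adjusted p = 2.3e-05) and -2.42 ± 0.16 for XERO1 (edgeR adjusted p = 5.3e-08). The log2 fold changes of the dehydrins named LEA and AT4G39130 were -2.59 and -2.30. Together, the 4 dehydrins that rose held 0.0310% ± 0.00485 of all gene reads in Rp libraries and 0.00808% ± 0.00118 in FRp libraries, while the 5 that fell took 0.179% ± 0.0500 after the Rp and 0.824% ± 0.0393 after the FRp. Predicted from RefSeq's coding sequences, the isoelectric points of the 4 that rose were 4.75 (COR47), 5.12 (ERD10), 5.88 (AT4G38410) and 6.67 (HIRD11), and those of the 5 that fell were 6.09 (AT4G39130), 6.38 (LEA), 7.10 (RAB18), 9.19 (XERO1) and 9.38 (LTI30). ERD14 had 5.41, and the ranges of the genes that rose and fell overlapped.

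**Figure D3:**
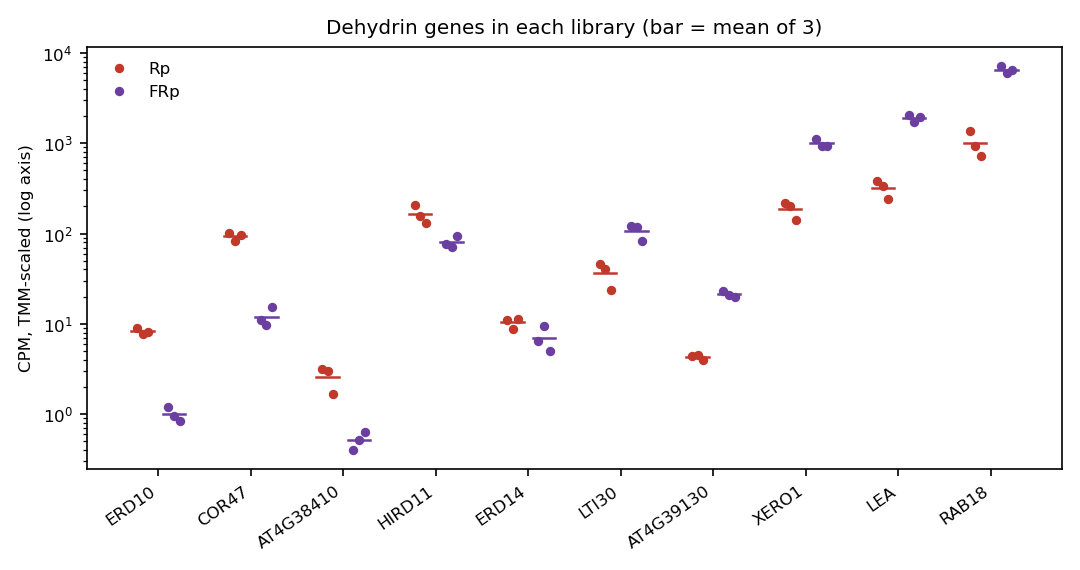
TMM-scaled CPM of the 10 dehydrin genes in each library on a log axis, Rp left of FRp for each gene, with a bar at the mean of 3 libraries. COR47, ERD10, HIRD11 and AT4G38410 lie higher after the Rp, ERD14 overlaps, and RAB18 is at a mean of 1007 CPM after the Rp and 6551 CPM after the FRp.

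LEA_1 and LEA_4 code for proteins that are thought to fold into helices as they dry. All 3 LEA_1 genes fell, against 26.8% of all genes tested. LEA4-2 had 649, 590 and 420 CPM in the Rp libraries, against 2831, 2163 and 2663 CPM in the FRp libraries. LEA4-1 had 533, 562 and 408 CPM in the Rp libraries, against 1061, 919 and 1043 CPM in the FRp libraries. LEA4-5, which is also induced in drying leaves, had 609, 514 and 491 CPM in the Rp libraries, against 1556, 1289 and 1640 CPM in the FRp libraries. No LEA_1 gene had overlapping groups, and the log2 fold changes were -2.21 ± 0.18 for LEA4-2, -1.01 ± 0.14 for LEA4-1 and -1.48 ± 0.14 for LEA4-5 (edgeR adjusted p = 2.1e-07, 2.9e-05 and 9.1e-07). Without TMM, LEA4-1 was under the fold limit (-0.58, edgeR adjusted p = 0.00097).

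Of the 17 LEA_4 genes, 13 were tested: 11 fell, AT2G03850 rose and AT3G02480 was not called. Over all genes tested, 26.8% were called lower and 28.8% higher. AT3G15670, with the most reads of the subgroup, had 1050, 1010 and 877 CPM in the Rp libraries, against 2698, 2514 and 2593 CPM in the FRp libraries. AT2G42560, with the lowest fold change of the subgroup, had 148, 106 and 117 CPM in the Rp libraries, against 1607, 1477 and 1380 CPM in the FRp libraries. Both were lower in every Rp library, by log2 fold changes of -1.41 ± 0.13 (edgeR adjusted p = 5.5e-07) and -3.59 ± 0.16 (edgeR adjusted p = 2e-09). The other LEA_4 genes that fell lay between -2.59 for AT3G53040 and -0.78 for LEA7, and included ECP63, named like ECP31 after a carrot embryonic protein, at -2.18. Without TMM, LEA7 (-0.35, edgeR adjusted p = 0.016) and AT2G18340 (-0.40, edgeR adjusted p = 0.0061) were under the fold limit. AT2G03850 had 192, 84 and 148 reads in the Rp libraries, against 22, 0 and 30 reads in the FRp libraries. Its log2 fold change was 2.51 ± 0.63 (edgeR adjusted p = 0.0029), but DESeq2 gave an adjusted p of 0.11, over a range of 1.6e-06 to 0.11 across all fits. The log2 fold change was 1.85 without FRp library 2, the one with 0 reads, and 3.1 without FRp library 3. AT3G02480 had 479, 477 and 315 CPM in the Rp libraries, against 304, 316 and 331 CPM in the FRp libraries. The third Rp library lay among the FRp libraries, and the log2 fold change was 0.42 ± 0.15, under the fold limit (edgeR adjusted p = 0.024). It was called higher without Rp library 3 (0.59, edgeR adjusted p = 0.00015) and without TMM (0.85, edgeR adjusted p = 0.0001). COR15A and COR15B, the cold-induced proteins of the chloroplast stroma, are neighbours of AT2G42560 and were near 0: COR15A had 6, 3 and 2 reads in the Rp libraries against 3, 1 and 2 in the FRp libraries, and COR15B had 8, 10 and 3 against 6, 0 and 0. These depths allow no comparison.

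LEA_2 proteins are known as folded proteins, unlike most of the family, and the 3 genes moved in both directions. LEA14 had 40.0, 35.9 and 26.0 CPM in the Rp libraries, against 212, 203 and 188 CPM in the FRp libraries, and fell by 2.57 ± 0.15 on the log2 scale (edgeR adjusted p = 1.2e-08). AT2G44060 had 31.2, 26.3 and 29.1 CPM in the Rp libraries, against 14.8, 13.3 and 17.6 CPM in the FRp libraries. AT2G46140 had 41.8, 38.8 and 36.8 CPM in the Rp libraries, against 21.2, 20.4 and 21 CPM in the FRp libraries. Groups were apart for each of the 3 genes, and the last pair rose by 0.93 ± 0.12 and 0.91 ± 0.09 (edgeR adjusted p = 1.6e-05 and 1.9e-06).

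LEA_3 also held both directions. SAG21, a protein of mitochondria linked to oxidative stress and leaf senescence, had 228, 197 and 158 CPM in the Rp libraries, against 51.1, 47.8 and 68.0 CPM in the FRp libraries. It was higher in every Rp library and rose by 1.80 ± 0.16 (edgeR adjusted p = 4.6e-07). DI21, a drought-induced gene, had 196, 187 and 126 CPM in the Rp libraries, against 256, 237 and 271 CPM in the FRp libraries. The groups were apart, with a log2 fold change of -0.59 ± 0.15 (edgeR adjusted p = 0.0031), but without TMM it was -0.16 (edgeR adjusted p = 0.31), and DI21 was not called either without the third Rp library or without the third FRp library. AT1G02820 had 47, 29 and 38 reads in the Rp libraries and 17, 34 and 23 in the FRp libraries, groups that overlap once scaled, and was not called (log2 fold change 0.20 ± 0.35, edgeR adjusted p = 0.61). AT3G53770, the remaining LEA_3 gene, had 0 reads.

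The PvLEA18 genes AT2G23110 and AT2G23120 lie 676 bases apart on chromosome 2, and both fell. AT2G23110 had 188, 178 and 127 CPM in the Rp libraries, against 650, 594 and 640 CPM in the FRp libraries. AT2G23120 had 120, 103 and 72.3 CPM in the Rp libraries, against 217, 193 and 216 CPM in the FRp libraries. In both the third Rp library was the lowest, and the log2 fold changes were -1.94 ± 0.15 and -1.09 ± 0.15 (edgeR adjusted p = 1.6e-07 and 3.6e-05). AT2G33690 had 0, 2 and 1 reads in the Rp libraries and 0, 0 and 2 in the FRp libraries, too few to be tested. UNE15 had 40, 39 and 31 reads in the Rp libraries and 39, 45 and 57 in the FRp libraries. Its log2 fold change of -0.79 ± 0.32 passed narrowly (edgeR adjusted p = 0.038), and the call was lost without TMM (-0.36, edgeR adjusted p = 0.31), with the replicate block and without library 1 or 3 of either group.

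The ABA response element (ABRE), with the core ACGTG, is bound by ABI5, EEL and the ABF factors, the RY element CATGCA by ABI3 and FUS3, and the DRE core CCGAC by the cold factors CBF. Of 18 genes for ABA and seed maturation regulators, 14 were tested, of which 9 fell and 2 rose, against 26.8% and 28.8% of all genes tested. The log2 fold change was -3.64 ± 0.11 for EEL, -3.26 ± 0.13 for ABF4, -3.11 ± 0.26 for FUS3, -1.37 ± 0.10 for ABI5 and -0.67 ± 0.11 for ABI3, while ABI4 and ABF3 both rose by 2.36. CBF1, CBF2 and CBF3 were too low to be tested. Of 4 other genes known to respond to ABA and cold, RD29A fell by 1.89 and RD29B fell by 2.32 on the log2 scale, KIN2 had a log2 fold change of 0.28 ± 0.55 and was not called, and KIN1 was too low.

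The ABRE core was searched on both strands in the 250 bases before the TAIR10 start of each gene, so that CACGTG counts as a pair of overlapping matches, and matches to different motifs may share bases. It was found for 29 of the 33 LEA genes that fell (87.9%) and for 2 of the 8 that rose (25%), against 32.7% of all genes called lower, 24.3% of all called higher and 24.7% of 27997 promoters. RefSeq's TAIR10.1 annotation starts many of these genes further upstream. Counted from those starts, the core was found for 28 of the 33 (84.8%) and 4 of the 8 (50%), against 22.8% of all promoters. The DRE core was found for 42.4% of the LEA genes that fell and 50% of those that rose, against 13.1% of all promoters, but for 45.5% and 12.5% with the TAIR10.1 starts. The RY element was found for 24.2% of those that fell and 0 of the 8 that rose, against 8.07% of all promoters, and for 21.2% and 1 of the 8 with the TAIR10.1 starts. These shares are descriptions with no test, and a match is not a site of binding. ECP31, M17, DI21 and UNE15 fell with no ABRE core in this window.

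AT3G02480, which was not called, had 8 matches to the ABRE core before its TAIR10 start, the most of any LEA gene. AT3G53040 had 7, the most of those that fell. Promoter stretches are shown for AT3G53040, EM6 and EM1, which fell, and for ERD10, which rose without a match to any of the 3 motifs. They are read 5′ to 3′ on the strand of the gene in TAIR10.1, stop before the gene start of both annotations, and have all matches to the 3 motifs in capitals.
AT3G53040 (chr3:19666498-19666737, minus strand): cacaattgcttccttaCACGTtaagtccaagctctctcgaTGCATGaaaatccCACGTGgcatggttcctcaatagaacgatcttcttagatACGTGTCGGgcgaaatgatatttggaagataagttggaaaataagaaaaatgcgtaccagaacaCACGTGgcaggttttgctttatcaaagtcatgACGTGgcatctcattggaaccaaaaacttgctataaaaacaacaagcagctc
EM6 (chr2:16780369-16780508, minus strand): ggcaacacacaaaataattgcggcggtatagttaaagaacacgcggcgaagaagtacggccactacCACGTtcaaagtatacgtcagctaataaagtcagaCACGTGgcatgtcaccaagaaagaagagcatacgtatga
EM1 (chr3:19214498-19214721, plus strand): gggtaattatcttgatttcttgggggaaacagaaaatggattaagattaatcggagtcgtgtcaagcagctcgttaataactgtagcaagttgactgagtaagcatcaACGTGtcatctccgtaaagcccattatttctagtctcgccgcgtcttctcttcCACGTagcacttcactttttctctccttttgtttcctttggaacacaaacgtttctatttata
ERD10 (chr1:7089607-7089856, minus strand): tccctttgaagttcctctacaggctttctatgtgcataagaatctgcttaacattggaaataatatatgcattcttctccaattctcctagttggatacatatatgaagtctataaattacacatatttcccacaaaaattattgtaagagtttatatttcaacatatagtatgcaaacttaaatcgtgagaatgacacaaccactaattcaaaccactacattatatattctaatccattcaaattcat

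**Figure D4:**
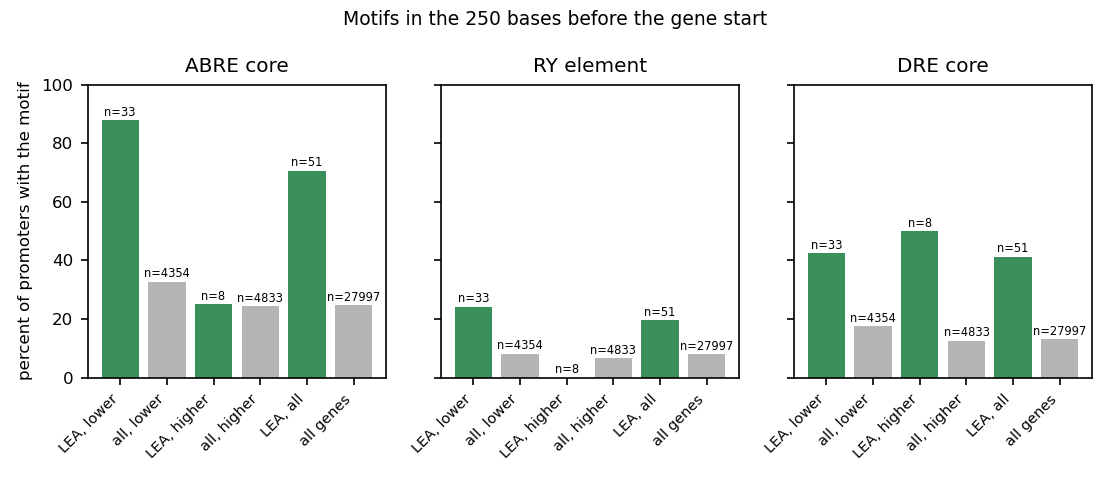
Percent of promoters with at least 1 match to the ABRE core, the RY element or the DRE core in the 250 bases before the TAIR10 gene start, for LEA genes (green) and all genes (grey), with the number of promoters above each bar. The ABRE core stands at 87.9% of LEA genes that fell, 25% of those that rose and 24.7% of all genes.

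The predicted LEA proteins were mostly hydrophilic and poor in cysteine and tryptophan. On the GRAVY scale, the mean hydropathy of a protein's residues, their median was -0.98, against -0.29 for 27325 proteins, and 24 of the 51 (47.1%) lay below -1, against 3.52%. Cysteine was absent from 31 (60.8%), against 5.72%, and tryptophan from 29 (56.9%), against 11.2%. LEA14 and AT2G46140 of LEA_2 were exceptions above 0, at 0.06 and 0.12. Glycine made up 33.9% of RAB18, 21.8% of M17, 20.4% of EM1 and 18.5% of EM6.

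Splicing was measured in 40 events of 32 LEA genes, 39 of them intron retention, with edgeR's quasi-likelihood test fitted over 28466 events. The 39 include 165 bases of M17 that were nearly always kept, at means of 94.5% after the Rp and 99.9% after the FRp. They also hold the RAB18 intron a second time, with much the same boundary reads set against a rarely used acceptor described below. Calls needed a difference above 0.5 percentage points beside an adjusted p below 0.15. The difference was taken from reads summed over the libraries of each group, so it can depart slightly from that of the library means. After the Rp, 3 events of 2 LEA genes were called lower, against 1.41% of all events tested, and 0 were called higher, against 0.980%. ECP31 retained its intron of 96 bases in 1.69%, 1.03% and 0.626% of transcripts in the Rp libraries, against 2.91%, 3.84% and 2.85% in the FRp libraries. Its intron of 79 bases was retained in 3.77%, 5.74% and 3.42% in the Rp libraries, against 10%, 11% and 8.54% in the FRp libraries. The groups were apart for both introns, by differences of -2.03 and -5.83 percentage points (edgeR adjusted p = 0.052 and 0.085). The counts behind the Rp values were low, with 5 to 19 boundary reads per library for the longer intron and 19 to 25 for the shorter one. Both calls were lost with the replicate block, that of the longer intron also without Rp library 2 or 3 or FRp library 2, and that of the shorter one without Rp library 1 or 3 or FRp library 1 or 2. RAB18 retained its intron in 0.181%, 0.159% and 0.163% in the Rp libraries, against 0.796%, 0.848% and 0.651% in the FRp libraries. The groups were well apart at these low levels, and the difference of -0.60 percentage points was called in every fit (edgeR adjusted p = 1.5e-06). Boundary reads were few here too, with 26, 12 and 12 in the Rp libraries, and the difference was close to the limit. DI21 went the other way, with 18, 13 and 12 boundary reads in the Rp libraries and 0, 1 and 0 in the FRp libraries, but the difference of 0.42 percentage points was under the limit (edgeR adjusted p = 3.5e-06).

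The 3 introns are shown in full, 5′ to 3′ on the minus strand of TAIR10.1, with the GT and AG at their ends in capitals.
ECP31, 96 bases (chr3:7972085-7972180): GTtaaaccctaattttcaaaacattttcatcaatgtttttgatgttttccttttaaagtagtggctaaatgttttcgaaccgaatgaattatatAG
ECP31, 79 bases (chr3:7972475-7972553): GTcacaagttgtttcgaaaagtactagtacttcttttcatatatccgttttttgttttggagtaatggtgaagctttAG
RAB18, 82 bases (chr5:26518721-26518802): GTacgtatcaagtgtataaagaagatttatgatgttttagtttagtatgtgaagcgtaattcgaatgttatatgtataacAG

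**Figure D5:**
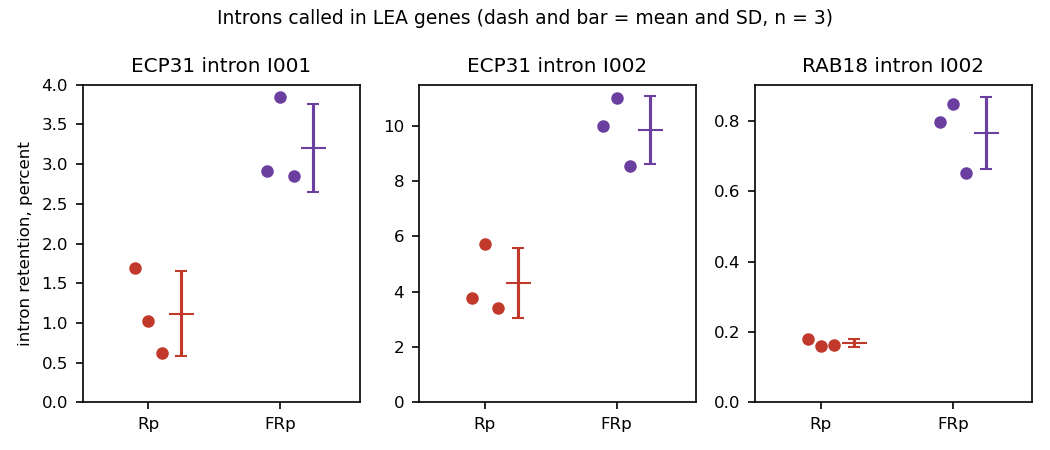
Intron retention in percent for the 3 called introns, in each Rp and FRp library, with the mean and SD of 3 libraries beside the points and a scale of its own for each intron. I001 and I002 of ECP31 are the introns of 96 and 79 bases, and all Rp points lie below all FRp points.

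The RAB18 intron also has a second acceptor 3 bases further on, singled out here after its values were seen. In the 29 bases around both (chr5:26518706-26518734, minus strand of TAIR10.1), the AG of each acceptor is in capitals.
RAB18 acceptors: tatatgtataacAGgAGgatgatggacaa
The distal acceptor was used by 0 reads in each Rp library, against 1045, 24 and 6 reads in the FRp libraries, while the proximal one had 7182, 3770 and 3680 reads in the Rp libraries, against 20756, 22498 and 21126 in the FRp libraries. Nearly all distal reads came from the first FRp library, and the event was not called (edgeR adjusted p = 0.83).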

How the data were processed

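Paired-end reads were aligned by the authors to TAIR10 with TopHat v2.1.1, and the authors deposited raw read counts per gene and per splice junction or exon-intron boundary. Whether strand was used is not given in the sources used here. The deposited fraction of inclusion, pooled per condition, was not used. No LEA gene overlaps another locus of the count table.

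edgeR 4.0.16 in R 4.3.3 (TMM, quasi-likelihood test, Benjamini-Hochberg) was run on genes whose counts averaged above 10, and above 0.05 per base, in at least 1 group. Dividing each log2 fold change by the root of its F gave the standard error. Splicing was tested with robust variance estimates on events with at least 10 junction reads per library on average in each group and 5 reads on each side, in genes that pass in both groups. Retention is the mean of the boundary reads over that mean plus the reads on the spliced junction. On simulated data, the gene test recovered 97.0% of 2-fold changes over 16924 genes with 1.99% of calls false. There, few genes were changed, in equal number up and down, and the spread between libraries was fixed. In the seed data 28.8% of genes were called higher and 26.8% lower, and recovery under changes as broad as these was not tested. For splicing, large changes of a single size were put into a few events with many reads and neither side rare. The splicing test, run on 28466 events and called on the adjusted p alone, recovered 72.0% of these changes, with 7.10% of calls false. Its recovery at retention as low as in LEA introns (median 1.6% after the Rp, 1.49% after the FRp) was not tested.

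Groups and replicate numbers come from the sample labels. Members, lists and subgroups were chosen with earlier results of these data known, and AT2G33690 was moved to PvLEA18, by its annotated group 6 domain, after results were seen. Values by library were given, in each subgroup, for the gene with the most reads, the called genes with the largest fold in each direction at a mean count of at least 50, neighbours within 10 kb and all genes of subgroups of up to 4. Sequences are from RefSeq TAIR10.1, on which 27998 loci of the count table were found.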

Additional observations from a re-analysis of the deposited data

How the results depend on the processing

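The direction held for all 44 LEA genes tested in each of 10 other fits, and 421 of 440 calls stayed on their side of the thresholds, the exceptions lying in 8 genes. Genes called higher and lower numbered 10 and 28 without TMM, 7 and 33 with DESeq2 1.42.0, 8 and 33 with no filter on low counts, 6 and 29 at a fold over 2, 10 and 33 at an adjusted p alone, and 8 to 9 and 31 to 33 with each library left out. Without TMM the median over all genes moved to 0.45 and that of the LEA genes to -1.26. LEA4-1, LEA7, AT2G18340, DI21 and UNE15 were no longer called lower without it, while AT3G02480 and ERD14 were called higher. All genes called higher and lower then numbered 7524 and 2568, against 4877 and 4536. The share of the reads on LEA genes by TPM was 1.69% in Rp and 6.16% in FRp libraries, and by reads 1.04% and 3.30% without M17, and 1.05% to 1.2% and 4.41% to 4.62% with each library left out. Called splicing events of LEA genes numbered 6 with default variance estimates, 3 with at least 20 junction reads and 1 to 3 with each library left out, the lowest without the third Rp or second FRp library. Same-numbered libraries did not deviate together, with correlations of 0.0388, -0.113 and -0.0517, so no broad effect shared by them was seen. Whether they were handled together is not known. With the replicate block, 9 LEA genes were called higher and 32 lower, their median was -1.70, and 3 splicing events were called, of which only the RAB18 intron was among the 3 called without it. The cause of these changes was not tested.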
